A study of Mus musculus with 2 samples.

Results

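Alveolar type 2 (AT2) cells were selected on their own measured values in a single-cell RNA-seq table of the newborn mouse lung. A cell was taken if its mitochondrial genes made up at most 10% of its total, its Sftpc value was at least 10, at least 4 of the 7 further markers Sftpa1, Sftpb, Lamp3, Slc34a2, Cxcl15, Abca3 and Napsa were above 0, and Ptprc, Pecam1 and Col1a2 were at 0. These values selected 345 of the 10660 cells within the mitochondrial limit, or 3.24% (exact Clopper-Pearson 95% interval 2.91 to 3.59%, counting error only), out of 11306 cells in the table. The series held 2 samples, 1 in each group: the single-cell library of sorted cells from the peripheral lung of wild-type mice at postnatal day 3, made with 10x Chromium 3′ v3 chemistry, and a bulk library of PDGFRA+ cells, sorted from peripheral lungs of Pdgfra-H2BGFP mice at that age, in which the Pdgfra locus drives a nuclear reporter. Both were labelled as control lungs. The gate of the single-cell sort and whether animals were pooled are not stated in the sources used here. With 1 library there were no replicates, so no difference below was tested, cells are not replicates, and every count of genes is a count by size. The comparison of the AT2 cells with other cells uses the library that chose them, so it describes them and is no independent evidence for them.

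AT2 cells are the cuboidal secretory cells of the alveolus. They make pulmonary surfactant, a film of phospholipid and of the surfactant proteins A, B, C and D that keeps the alveolus from collapsing at low volume, and they store it in lamellar bodies before release. They also serve as progenitors of the flat alveolar type 1 (AT1) cells, which cover most of the gas exchange surface. In the newborn mouse lung both types take shape while the alveoli are still forming.

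The table held 17758 genes, and its values were whole numbers. Cell totals lay between 3859 and 6899, a 1.79-fold span, and from this narrow span the values were taken to be corrected for depth. Detected genes per cell ran from 1150 through a median of 2222 to 3473 in the AT2 cells, and the other cells had a median of 2058. Levels are given as CPM, each class's summed values per 1000000, where 1 value is worth 0.472 CPM in the AT2 cells. Of the 10660 cells within the mitochondrial limit, 425 met the Sftpc and marker limits, and 80 of them were set aside for a value of Ptprc (50 cells), Pecam1 (21 cells) or Col1a2 (31 cells). Just inside the rule, the AT2 cells with the lowest Sftpc held 241, 259 and 333. Just outside it, 6 cells failed on Sftpc alone with a highest value of 9, and 1 cell failed on the further markers alone with an Sftpc value of 139. A re-implemented doublet caller marked 4 AT2 cells (1.16%) and 4.04% of all cells, and it called 53.3% of simulated pairs.

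Surfactant protein genes took a large part of each AT2 cell's RNA. Sftpc, which encodes the hydrophobic surfactant protein C, held 3.73% of the cell total at its lowest, 22.6% at the median and 33.1% at its highest. Its value per cell was 241 at the lowest, 1388 at the median and 2051 at the highest, and the middle 80% of cells lay within a 1.65-fold span (990 to 1635). Sftpa1, a collectin that binds microbes and surfactant lipid, was spread more widely, from 3 through 78 to 311, with a 5.48-fold span over the middle 80%. Sftpb, whose product is needed to form lamellar bodies, ran from 3 through 49 to 83, a 2.47-fold span. These genes belong to the rule, and their levels are given as a description. The 5 fixed markers of the type, Sftpc, Sftpa1, Lamp3, Slc34a2 and Abca3, were above 0 in 98.3 to 100% of the cells, and 334 cells had all 7 further markers.

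Promoters of 6 of the 8 genes that the rule uses as AT2 markers were in the RefSeq promoter table (GRCm38.p6), and the 4 in which a motif core was found are shown. Each run is the 250 bases before the annotated start, read 5′ to 3′ on the gene's strand, at chr14:41131538-41131787, plus strand for Sftpa1, chr6:72304360-72304609, plus strand for Sftpb, chr16:19706366-19706615, minus strand for Lamp3 and chr5:53049103-53049352, plus strand for Slc34a2. Capitals mark matches, on either strand, to short cores bound by factors of the lung epithelium: CTCAAG or CAAGTG for NKX2-1, TGTTTAC or TGTTTGC for FOXA proteins and TTGCNNAA for C/EBP proteins.
Sftpa1: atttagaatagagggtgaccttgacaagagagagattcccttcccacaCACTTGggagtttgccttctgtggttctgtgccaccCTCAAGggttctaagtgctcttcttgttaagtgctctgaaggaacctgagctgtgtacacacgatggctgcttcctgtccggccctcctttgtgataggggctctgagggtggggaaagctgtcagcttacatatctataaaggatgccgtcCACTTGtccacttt
Sftpb: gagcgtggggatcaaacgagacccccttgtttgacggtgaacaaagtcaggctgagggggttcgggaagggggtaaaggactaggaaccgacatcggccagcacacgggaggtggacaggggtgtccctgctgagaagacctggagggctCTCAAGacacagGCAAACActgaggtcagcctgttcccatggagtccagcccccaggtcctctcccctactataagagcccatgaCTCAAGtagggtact
Lamp3: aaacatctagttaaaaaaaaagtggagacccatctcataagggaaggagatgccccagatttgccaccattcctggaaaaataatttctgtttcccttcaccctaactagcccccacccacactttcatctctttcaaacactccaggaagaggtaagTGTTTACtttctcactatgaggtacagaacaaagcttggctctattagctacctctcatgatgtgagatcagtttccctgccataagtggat
Slc34a2: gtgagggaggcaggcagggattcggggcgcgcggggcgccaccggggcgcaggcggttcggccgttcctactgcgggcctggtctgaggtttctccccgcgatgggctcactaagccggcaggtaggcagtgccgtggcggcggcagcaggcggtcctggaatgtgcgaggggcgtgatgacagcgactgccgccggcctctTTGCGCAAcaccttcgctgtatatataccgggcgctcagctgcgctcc
Sftpa1 held 3 NKX2-1 cores, whose upstream ends lay 202, 166 and 14 bases before the start. Sftpb held 2, at 100 and 15 bases, and a FOXA core at 88 bases. Lamp3 held a FOXA core at 92 bases, and Slc34a2 a C/EBP core at 48 bases. The Slc34a2 window lies inside the gene's full span (chr5:53038081-53071664, mm10), so the start it precedes is not the outermost one. Among all 32851 windows of the table, 22.6% held an NKX2-1 core, 7.29% a FOXA core and 9.56% a C/EBP core. A match is a description only. The factors themselves were detected: Nkx2-1 was above 0 in 81.2% of AT2 cells and in 0.118% of lymphocyte gate cells, Foxa2 in 50.1% and 0.470%, and Cebpa in 70.7% and 1.18%. Nkx2-1 and Foxa2 were not particular to AT2 cells. Each was above 0 in 76.5% of the AT1 gate cells set out below, at 365 and 217 CPM, against 234 and 95.8 CPM in the AT2 cells. Cebpa was at 0 in the AT1 gate and above 0 in 26.7% of macrophage and monocyte gate cells. These 3 factors were picked after their values were seen.

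Another 6 classes were set by marker gates for comparison, each named by the gate and not by clustering. They were 17 AT1 gate cells (Epcam above 0, at least 5 of 8 AT1 markers, Sftpc under 10), 22 airway epithelial, 682 endothelial, 1721 fibroblast, 851 lymphocyte and 1844 macrophage and monocyte gate cells. Lymphocytes, which should lack surfactant RNA, showed how much of it was found in every cell: Sftpc was above 0 in 87.0% of them, with a median value of 2 per cell. Their median of detected genes was 1876, against 2222 in the AT2 cells. The ratios of other genes to Sftpc were set beside those in the AT2 cells. Sftpa1 stood at 6.48% of the Sftpc sum in the AT2 cells and at 4.26 to 5.67% in the lymphocyte, endothelial, fibroblast and macrophage and monocyte gates, and Lyz1 stood at 9.27% in the AT2 cells and at 8.83 to 12.2% in those gates. Sftpb stood at 3.53% in the AT2 cells and at 2.74 to 4.09% in the same 4 gates. The ratios of the other epithelial gates lay further away, with Sftpa1 at 10.6% and Sftpb at 12.8% of the Sftpc sum in the AT1 gate, and at 46.0% and 82.0% in the airway gate.

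**Figure D1:**
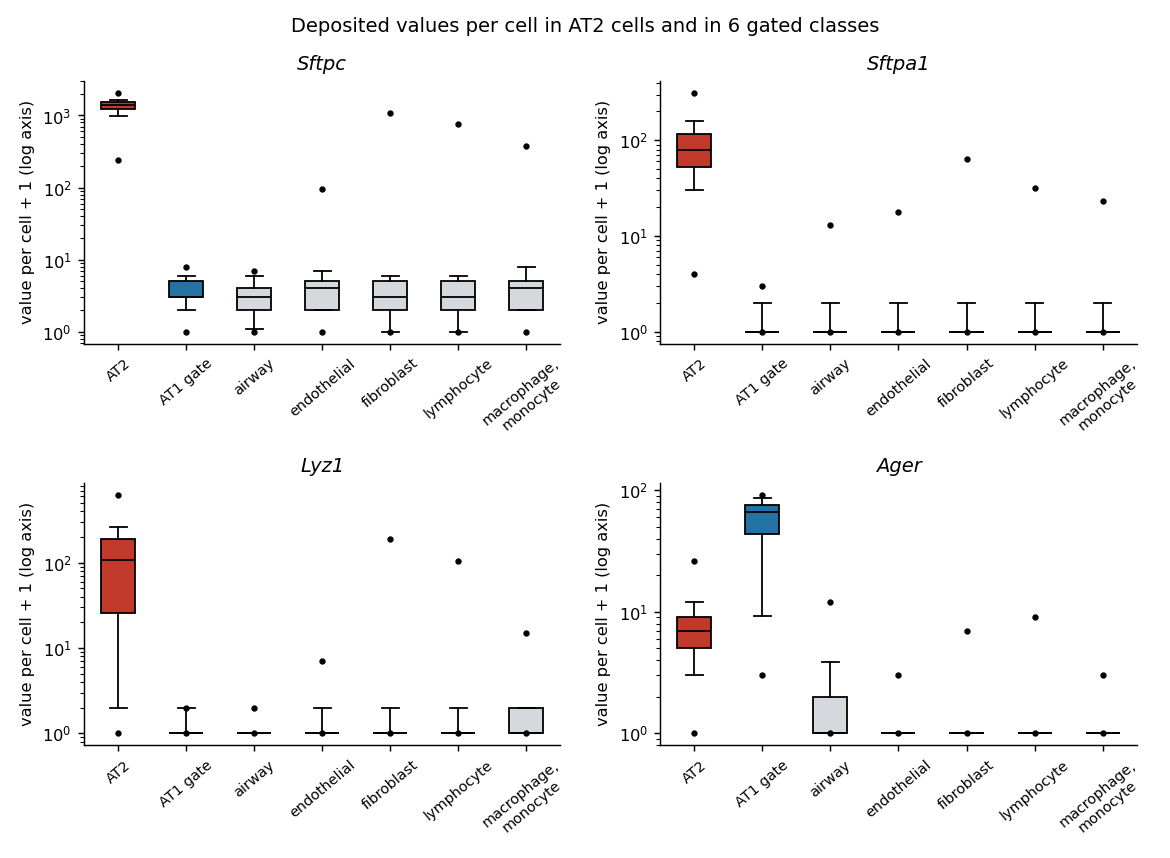
Deposited values per cell, plus 1, on a log axis for Sftpc, Sftpa1, Lyz1 and Ager in the AT2 cells (red), the AT1 gate cells (blue) and 5 other gated classes (grey). Boxes span the middle 50% of cells with the median as a line, whiskers the 10th to 90th percentile, and dots the lowest and highest cell. Median Sftpc was 1388 in the AT2 cells and 2 in the lymphocyte gate, and median Ager was 6 in the AT2 cells and 65 in the AT1 gate.

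The profile against all 10315 other cells was led by surfactant and secretory genes. Of 15472 genes with at least 20 summed values, 1942 (12.6%) were higher in the AT2 cells by a log2 ratio of 1 or more, with 1 CPM added to both sides, and 4134 (26.7%) were lower by as much. The median ratio over all of them was -0.32. CPM are shares of a total, and Sftpc alone held 219170 CPM in the AT2 cells, against 1934 CPM in the others. With the 11 genes of the rule left out of the totals, the median was 0.05, a shift of 0.37, and 2899 genes were higher and 3371 lower. Each log2 ratio below can be read against that shift. List counts against all other cells can be read against the 12.6% higher and 26.7% lower of all genes. Of the other cells' Sftpc, 64.4% sat in 76 cells at 100 or more, 74 of them with Ptprc, Pecam1 or Col1a2 above 0.

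**Figure D2:**
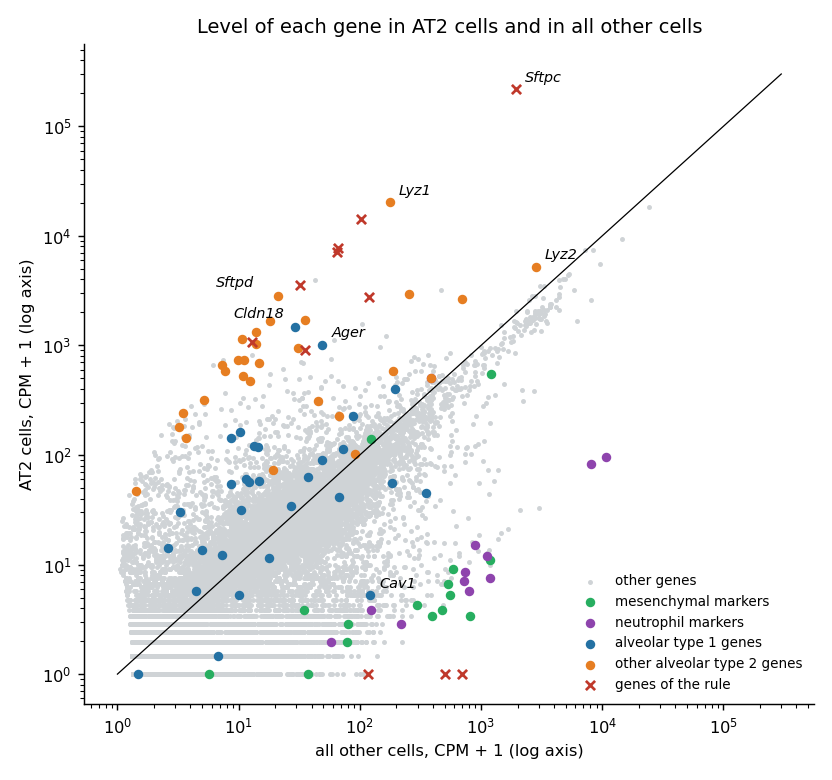
Each gene's level in the AT2 cells (vertical) against all other cells (horizontal), as CPM plus 1 on log axes; the line marks equal levels, and genes with at least 20 summed values are shown. Red crosses are the genes of the rule, orange other AT2 genes, blue AT1 genes, purple neutrophil markers and green mesenchymal markers. Lyz1 stood at 20318 CPM in the AT2 cells and 176 CPM in the others, and Cav1 at 4.25 and 120 CPM.

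Surfactant and lamellar body genes outside the rule were all higher in the AT2 cells, 5 of 5 tested, with a median log2 ratio of 5.58 beside the -0.32 of all genes. Sftpd, the other collectin, had 2837 CPM in the AT2 cells and 20 CPM in all others, and its value per cell ran from 0 through 15 to 80. Sfta2, a small secreted surfactant-associated protein, had 1327 and 12.8 CPM. Lpcat1, which makes the saturated phosphatidylcholine of surfactant, had 1699 and 34.4 CPM and was above 0 in 100% of AT2 cells and in 9.17% of lymphocytes. Ctsh, a protease that trims surfactant protein precursors, had 1576 and 104 CPM, and it was at 1400 CPM in the AT1 gate cells. Adgrf5, a receptor that limits the surfactant pool, was picked after its values were seen and stood at 173 and 53.7 CPM.

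Of 29 other AT2 genes tested, 26 were higher and 0 lower, again with a median of 5.58. Lysozyme 1, an antibacterial enzyme encoded by Lyz1, had 20318 CPM in the AT2 cells and 176 CPM in all others. S100g, a calcium-binding protein, had 1153 and 9.62 CPM. The 3 genes between the limits were Lyz2, Lcn2 and Chil1: Lyz2 stood at 5243 CPM in the AT2 cells, 2841 CPM in all others and 7892 CPM in the macrophage and monocyte gate. Outside these lists, the ratios were highest for Pla2g1b (661 and 5.16 CPM), a secreted phospholipase, Chia1 (734 and 6.50 CPM), an acidic chitinase, and Wfdc2 (3931 and 41.8 CPM), a secreted protein with protease inhibitor domains. Irx5, a homeobox factor, had 277 and 3.03 CPM, and Atp6v1c2, a subunit of the proton pump that acidifies organelles, had 205 and 2.09 CPM. Complement component C6 had 181 and 2.53 CPM. The rule for named genes also took Myh7, the slow myosin heavy chain known from heart and slow muscle, which was above 0 in 68.7% of AT2 cells and in 0.588% of lymphocytes (179 CPM, against 1.85 CPM in all other cells). Mal, Rbpjl, Tinag, Fbp2, Prr15l, Tc2n and Myo5c were also among the 15 highest, at 106 to 212 CPM in the AT2 cells and 1.01 to 3.12 CPM in all others.

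Lipid synthesis was broadly represented: 23 of 34 genes were higher and 2 lower, with a median of 1.45. Scd1, which desaturates fatty acids, had 529 CPM in the AT2 cells and 9.82 CPM in all others. Fasn, the fatty acid synthase, had 379 and 23.9 CPM, and Stard10, a lipid transfer protein, 199 and 10.4 CPM. Fabp5, a fatty acid carrier, was above 0 in 99.4% of AT2 cells and 33.5% of lymphocytes. The 2 lower genes were Elovl6, a fatty acid elongase (2.36 and 14.2 CPM), and Lpin1, a phosphatidate phosphatase (20.8 and 47.5 CPM). With the rule genes left out of the totals Lpin1 stood at -0.75 and was no longer past the limit. Hmgcs1, an enzyme of cholesterol synthesis, stood at 123 and 56.3 CPM. Elovl6, Lpin1 and Hmgcs1 were picked after their values were seen.

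Transcription factors of the alveolar epithelium were higher in 19 of 23 cases and lower in 1, with a median of 4.64. Elf5, an ETS factor of branching epithelium, had 151 CPM in the AT2 cells and 1.29 CPM in all others. The Iroquois factors Irx1, Irx2 and Irx3 had 238, 132 and 293 CPM in the AT2 cells, against 3.40, 1.83 and 4.20 CPM. In the AT1 gate the same 3 genes stood at 227, 148 and 168 CPM, so they were found in both alveolar types. A pair of factors differed between the types by more: Etv5, a target of FGF signalling, had 475 CPM in the AT2 cells, and Cebpa, a C/EBP factor, 182 CPM, and both were listed at 0 in the AT1 gate, where 1 value is worth 9.86 CPM. Etv5 and Cebpa were picked after their values were seen. Epithelial adhesion and keratin genes were higher in 24 of 28 cases and lower in 1. They were led by the claudins Cldn3 (819 and 12 CPM), Cldn18 (1473 and 28.2 CPM) and Cldn7 (369 and 6.76 CPM) and by the vesicle GTPase Rab25 (128 and 1.95 CPM). Against the AT1 gate, 2 of the 28 were higher and 10 lower. By class, 4 were highest in the AT2 cells, 13 in the AT1 gate and 10 in the airway gate. Cldn3 and Cldn7 stood at 1315 and 630 CPM in the airway gate, and Cldn18 and Rab25 at 4279 and 197 CPM in the AT1 gate.

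Ion and fluid transport genes were higher in 15 of 18 cases outside the rule and lower in 2. Cftr, the chloride channel of cystic fibrosis, was above 0 in 74.2% of AT2 cells and 0.118% of lymphocytes, at 192 CPM against 1.66 CPM in all other cells. Slc26a9, another chloride carrier, had 93.4 and 1.22 CPM, the zinc importer Slc39a8 262 and 6.10 CPM, and the potassium channel Kcnj15 92.5 and 2.81 CPM. The sodium channel subunits Scnn1a, Scnn1b and Scnn1g, which drain fluid from the airspace at birth, were at 16.5, 9.91 and 13.2 CPM in the AT2 cells, against 207, 306 and 394 CPM in the AT1 gate cells. Scnn1a and Scnn1b were picked after their values were seen.

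Signals sent and received by the epithelium were mixed. Of 27 ligands outside the rule, 10 were higher and 8 lower. Il33, an alarm cytokine, had 143 CPM in the AT2 cells and 2.65 CPM in all others, and Hbegf, an EGF family ligand, 190 and 14.1 CPM. Cxcl12 and Kitl, ligands for CXCR4 and KIT, were low at 0.944 and 7.55 CPM in the AT2 cells, against 61.3 and 87.3 CPM in all others. Of 31 growth factor receptors and their targets, 13 were higher and 12 lower. Fgfr2, the receptor for FGF7 and FGF10, had 329 and 9.92 CPM and was above 0 in 87.2% of AT2 cells and 1.06% of lymphocytes. Erbb3 had 52.4 and 1.52 CPM, Met, the hepatocyte growth factor receptor, 91.5 and 6.87 CPM, and Il6ra 4.72 and 70.5 CPM. Against other cells with Ptprc at 0, 8 of the receptors and targets were higher and 14 lower, beside 9.58% and 32.1% of all genes tested.

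Of the autonomic and neuropeptide receptors, which the series concerns, 25 were tested, 2 were higher in the AT2 cells and 14 lower, with a median of -1.30. Npy2r, a receptor for neuropeptide Y and peptide YY, was the highest of them by ratio, at 61.8 CPM in the AT2 cells and 0.680 CPM in all others. It was above 0 in 27.8% of AT2 cells (exact interval 23.2 to 32.9%) and 0.235% of lymphocytes (0.0285 to 0.846%), with a highest value of 4 in any AT2 cell, and it was at 0 in the AT1 and airway gates. The other higher gene was Chrnb1, a subunit of the muscle nicotinic receptor (17 and 1.31 CPM). Ramp2 and Calcrl, which together form the adrenomedullin receptor, had 1.89 and 2.83 CPM in the AT2 cells, against 209 and 93.8 CPM in all others and 1901 and 835 CPM in the endothelial gate. Gfra2, a receptor for neurturin, had 0.472 and 22.2 CPM. Adrb1, a beta adrenergic receptor, was at 8.49 CPM in the AT2 cells, against 14.5 CPM in all others, and was above 0 in 5.22% of AT2 cells, beside 1.65% of lymphocytes. Adrb3, Chrm1, Chrm2 and Npy1r had no value above 0 in any AT2 cell, which allows a share of up to 0.870% of cells with a value (3 cells of 345) and sets no limit on cells that express the gene. Chrnb1, Adrb1, Adrb3, Chrm1, Chrm2 and Npy1r were picked after their values were seen.

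Of 25 host defence genes outside the rule, 11 were higher and 7 lower. Against other cells with Ptprc at 0, with the 2 genes of the rule counted, 17 of 27 were higher and 6 lower. In that comparison 9.58% of all genes tested were higher and 32.1% lower. Hc, complement component C5, had 180 CPM in the AT2 cells and 2.23 CPM in all others. Of the class II antigen presentation genes, Cd74, H2-Aa and H2-Ab1 had 2676, 457 and 436 CPM in the AT2 cells, against 701, 115 and 195 CPM in all others, and H2-DMa had 72.7 and 70.7 CPM. The class I genes H2-D1, H2-K1 and B2m had 391, 294 and 86.8 CPM, against 2170, 723 and 1034 CPM in all others. B2m, the light chain of class I molecules, was above 0 in 36.8% of AT2 cells and in 98.7% of lymphocytes. Cxcl2, a neutrophil chemokine, had 17.5 and 969 CPM. The antigen presentation genes were picked after their values were seen.

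Lysosome genes were higher in 4 of 32 cases and lower in 14, with a median of -0.78, beside 12.6% higher and 26.7% lower of all genes. Ctss, Psap, Rab32 and Lipa, which act in protein, sphingolipid, vesicle and cholesterol ester handling, had 8.02, 43.4, 0.472 and 5.19 CPM in the AT2 cells, against 499, 1169, 31.6 and 114 CPM, and in the macrophage and monocyte gate they stood at 1482, 3034, 73.0 and 253 CPM. Npc2, a cholesterol carrier of the lysosome lumen chosen after its value was seen, went the other way, at 3183 and 464 CPM. Endoplasmic reticulum and secretion genes lay close to the other cells, with 25 of 29 between the limits and a median of -0.05. Ssr2, Sel1l and Pdia6, which act in protein entry, degradation and folding, were at 423, 128 and 390 CPM in the AT2 cells, against 154, 54.3 and 192 CPM, and the stress factor Ddit3 at 24.5 and 57.5 CPM. Of 22 genes known to respond to tissue dissociation, 1 was higher and 8 lower, beside the same shares of all genes. Klf2 stood at 11.3 and 454 CPM, Nr4a1 at 49.5 and 274 CPM, Junb at 297 and 1101 CPM and Btg2 at 152 and 563 CPM. Jun went the other way, at 748 CPM in the AT2 cells, against 303 CPM. Fos and Atf3, at 529 and 172 CPM in the AT2 cells, against 447 and 134 CPM, lay between the limits. These 3 were picked after their values were seen.

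**Figure D3:**
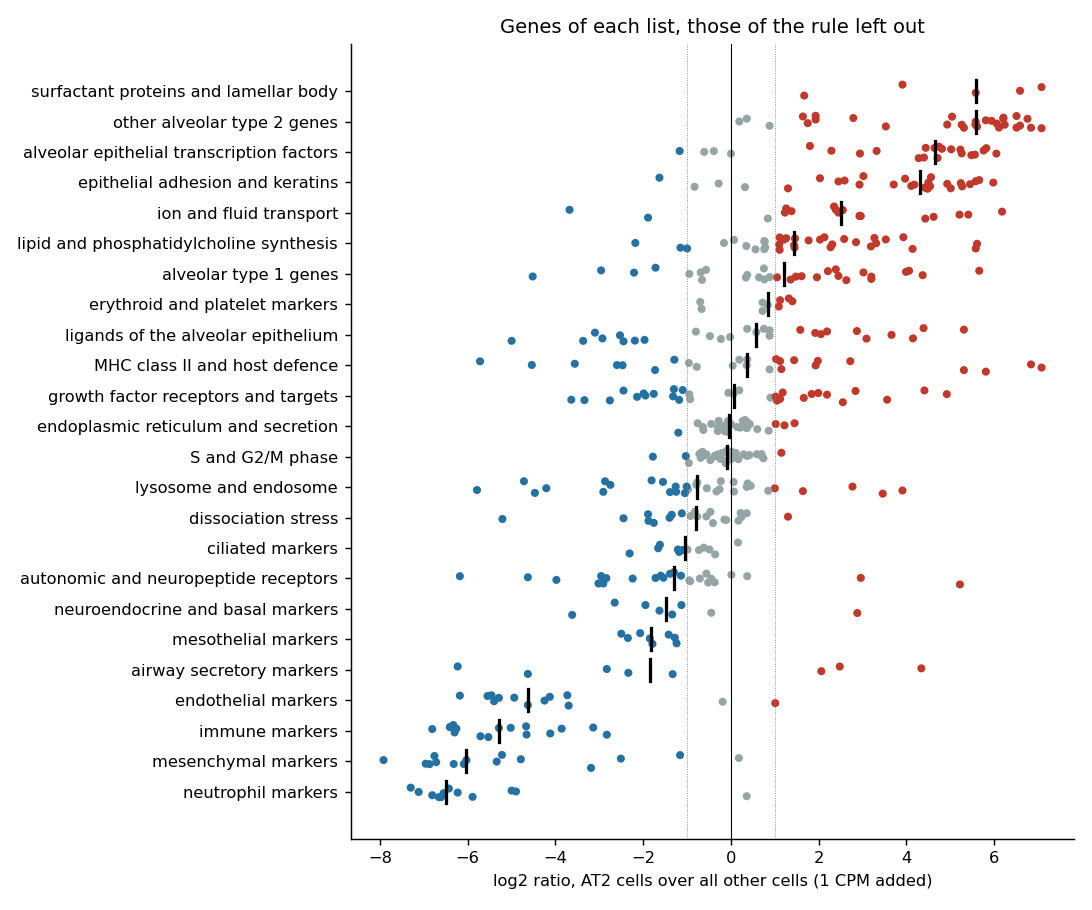
Log2 ratio of the AT2 cells over all other cells (horizontal, 1 CPM added) for each tested gene of 24 lists, with the genes of the rule left out. Points at 1 or more are red, at -1 or less blue and others grey, and black bars are list medians. Medians ran from 5.58 for the surfactant and other AT2 lists to -6.49 for neutrophil markers.

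Markers of other cell types were low in the AT2 cells, apart from a few. All 15 immune markers outside the rule were lower, with a summed level of 215 CPM in the AT2 cells and 9130 CPM in all others, and the median AT2 cell had 0 of the 16. Rac2, Cd52, Srgn and Tyrobp stood at 3.30, 12.7, 16 and 20.3 CPM, against 482 to 1672 CPM. Neutrophil markers were lower in 11 of 12 cases, with 731 CPM in the AT2 cells and 25019 CPM in all others, and the exception was Lcn2. Retnlg, Camp and Ngp had 6.61, 4.72 and 6.13 CPM in the AT2 cells, against 719 to 1194 CPM. S100a9 was above 0 in 28.7% of AT2 cells and in 56.5% of lymphocytes, so its share did not stand above background. Endothelial markers were lower in 11 of 13 cases outside the rule (171 CPM in the AT2 cells and 1552 CPM in all others). Cldn5, Tmem100 and Kdr had 5.66, 0.944 and 0.944 CPM, against 311, 84.7 and 81.3 CPM, and Esam, at 60.9 and 69.4 CPM, and Ly6c1, at 71.7 and 35 CPM, were the exceptions, picked after their values were seen. Mesenchymal markers were lower in 14 of 15 cases outside the rule. Col3a1, Tagln, Mgp and Eln had 2.36 to 9.91 CPM in the AT2 cells, against 391 to 1185 CPM. Sparc, a matrix protein found in many cells, had 544 CPM, against 1214 CPM, and was picked after its values were seen. It was also among the lower genes, and the 1 gene between the limits is not named here.

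Airway secretory markers split: 3 of 8 tested were higher and 5 lower. Cbr2, a carbonyl reductase of club cells, had 688 CPM in the AT2 cells, 33.0 CPM in all others and 7395 CPM in the airway gate, while Scgb3a2, a club cell secretory protein, had 0.472 and 9.48 CPM. Ltf and Hp, secreted proteins that neutrophils also make, had 1.89 and 11.3 CPM, against 216 and 304 CPM. Ciliated markers were lower in 6 of 12 cases and mesothelial markers in 8 of 8, at 53.8 and 12.3 CPM summed in the AT2 cells, against 97.7 and 70.3 CPM. Neuroendocrine and basal markers were lower in 6 of 8 cases (18.9 and 75.2 CPM). Erythroid and platelet markers were higher in 4 of 9 cases, at 81.6 CPM summed in the AT2 cells and 94.1 CPM in all others, with Hbb-bs at 9.44 and 2.95 CPM and the platelet gene Pf4 at 50.5 and 82.5 CPM. Among the 10 lowest ratios outside the lists were those of Mfap4, Rarres2, Slc16a3, Fbn1, BC100530, Lgals1, Plac8, Mdk and Gm5483, at 0 to 31.6 CPM in the AT2 cells and 105 to 3033 CPM in all others. Mfap4 and Fbn1 encode matrix proteins of elastic fibres, with 5103 and 554 CPM in the fibroblast gate.

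AT1 genes were present in the AT2 cells, unevenly. Of 30 in the list, 16 were higher than in all other cells and 4 lower, with a median of 1.21. Against the other cells with Ptprc at 0, which leaves out most immune cells, 11 were higher and 8 lower, with a median of 0.40. In that comparison 9.58% of all genes tested were higher and 32.1% lower. Ager, the receptor for advanced glycation end products and a standard AT1 marker, was above 0 in 97.7% of AT2 cells (exact interval 95.5 to 99.0%) and in 4.11% of lymphocytes. Its value per cell ran from 0 through 6 to 25 in the AT2 cells, against 2 through 65 to 91 in the AT1 gate cells. The class levels were 1015 CPM in the AT2 cells and 9002 CPM in the AT1 gate, so both alveolar types held Ager and their ranges overlapped. Cldn18, a claudin of both types, had 1473 and 4279 CPM, with values of 0 through 8 to 31 in the AT2 cells and 1 through 29 to 42 in the AT1 gate. Emp2, a membrane protein of AT1 cells, had 403 and 3756 CPM.

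Several further AT1 genes were above 0 in most AT2 cells. Anxa3, an annexin, was above 0 in 71.9% of AT2 cells and 5.17% of lymphocytes, Gprc5a, an orphan receptor, in 59.7% and 1.06%, Clic3, an intracellular chloride channel protein, in 57.4% and 0.588%, and Krt7, a keratin, in 52.8% and 0.118%. Their levels were 225, 142, 160 and 117 CPM in the AT2 cells, against 1223, 680, 1114 and 1538 CPM in the AT1 gate. They were not particular to the alveolar types. Gprc5a, Clic3 and Krt7 were above 0 in 68.2, 90.9 and 72.7% of airway gate cells, at 273, 581 and 182 CPM. Anxa3 was above 0 in 54.5% of airway gate cells and in 74.6% of endothelial gate cells, at 119 and 332 CPM. Other AT1 genes were found in fewer AT2 cells. Pdpn, the podoplanin of the AT1 surface, was above 0 in 27% of AT2 cells, Aqp5, a water channel, in 22%, and Akap5, a kinase anchor, in 21.2%, and all 3 were above 0 in 0.235 to 0.705% of lymphocytes. Their levels were 52.8, 59.0 and 56.6 CPM in the AT2 cells, against 532, 2632 and 2159 CPM in the AT1 gate. Igfbp2, a secreted binding protein of insulin-like growth factors, was above 0 in 4.35% of AT2 cells, against 88.2% of AT1 gate cells and 0.353% of lymphocytes. Hopx, a homeobox protein used as an AT1 marker, was above 0 in 11.9% of AT2 cells (8.66 to 15.8%), beside 17.3% of lymphocytes (14.8 to 20%), so its share did not stand above that class. The same holds for Cav1 (2.32% of AT2 cells and 4.94% of lymphocytes), Ahnak (21.2% and 47.6%) and Spock2 (0.290% and 3.17%), and Cyp2b10 had no value above 0 in any AT2 cell. Hopx was above 0 in 61.7% of the 47 AT2 cells with 4 or more of the 8 AT1 gate markers. The share was 3.96% in the 101 cells with 2 markers and 0% in the 157 with 0 or 1. Hopx is itself 1 of the 8, so its share tends to rise with their number by construction. Ager, another of the 8, was above 0 in 97.7% of AT2 cells, which leaves little room for Hopx in the lowest band. The markers were not recounted without Hopx, so these shares cannot show whether it goes with the other markers.

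Per cell, 9 of the 30 AT1 genes were above 0 in the median AT2 cell, with a lowest of 2 and a highest of 24. The lymphocyte gate had a median of 1 and the AT1 gate a median of 28 (range 15 to 29). The medians of detected genes were 2222, 1876 and 2449 in these 3 classes. The airway gate had a median of 14 AT1 genes, above that of the AT2 cells, with a median of 3131.5 detected genes. Medians in the endothelial, fibroblast and macrophage and monocyte gates were 5, 4 and 2. With each cell's values thinned to 3859, the lowest cell total, the medians were 7 in the AT2 cells, 26 in the AT1 gate and 1 in the lymphocytes, and Ager was above 0 in 93.9% of AT2 cells and 1.88% of lymphocytes.

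**Figure D4:**
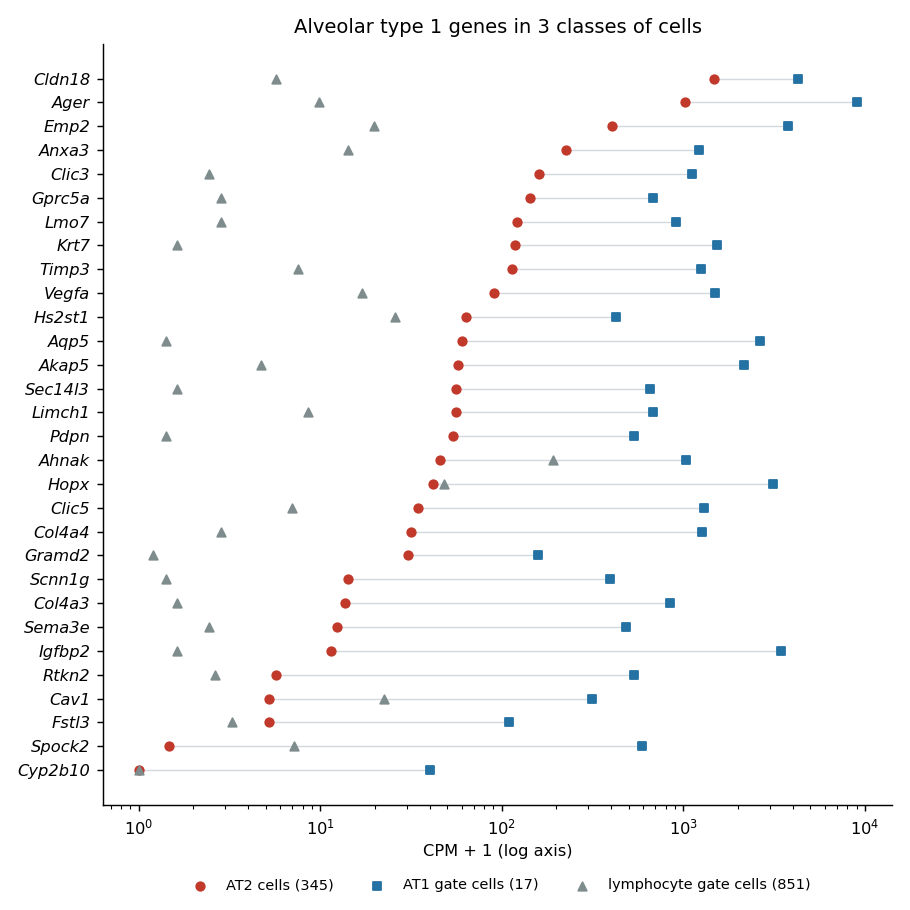
Levels of the 30 AT1 genes as CPM plus 1 on a log axis in the AT2 cells (red circles), the AT1 gate cells (blue squares) and the lymphocyte gate cells (grey triangles), ordered by the level in the AT2 cells. The AT1 gate lies to the right of the AT2 cells for each gene, by the least for Cldn18 (1473 and 4279 CPM in the AT2 cells and the AT1 gate).

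Against the 17 AT1 gate cells, 1695 of 8872 tested genes (19.1%) were higher in the AT2 cells and 1983 (22.4%) lower. With the rule genes left out of the totals, 2283 were higher and 1086 lower, and the median over all tested genes moved by 0.42, which gave 0.19 in place of -0.23. This gate is small. It held 2 cells that also passed the airway gate, and 1 of them carried an Scgb1a1 value of 2334, against at most 2 in the other 15. Without the pair, 1935 genes were higher and 2032 lower, and Ager stood at 10173 CPM in the AT1 gate. The gate used 8 AT1 markers. The 21 tested AT1 genes outside those 8 were lower in the AT2 cells in 21 of 21 cases, with a median log2 ratio of -3.61, beside the 22.4% of all genes.

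By list, all 29 other AT2 genes tested were higher in the AT2 cells than in the AT1 gate, with a median of 4.88. Among lipid genes 21 of 32 were higher and 1 lower (median 1.42), and among host defence genes outside the rule 17 of 22 were higher and 2 lower (median 3.51). Other lists held more lower than higher genes. Epithelial adhesion and keratin genes were higher in 2 of 28 cases and lower in 10 (median -0.53). Outside the rule, 6 of 16 transport genes were higher and 8 lower (median -0.94), and 6 of 18 ligands higher and 9 lower (median -0.96). Of 24 growth factor receptors and targets, 7 were higher and 10 lower (median -0.23). Scd1 had 529 CPM in the AT2 cells and was listed at 0 in the AT1 gate. The signalling genes Vegfa and Pdgfa, growth factors for capillaries and myofibroblasts, had 89.2 and 96.7 CPM in the AT2 cells, against 1489 and 1016 CPM in the AT1 gate. The Hedgehog ligand Shh had 17.9 and 207 CPM. Fgfr2 had 329 CPM in the AT2 cells and 9.86 CPM, a single value, in the AT1 gate. Of the S and G2/M genes 27 of 35 were higher in the AT2 cells and 0 lower (median 2.04). Pdgfa and Shh were picked after their values were seen.

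Among the 345 AT2 cells, Lyz1 and Lyz2 had the highest variance over mean of the genes outside the rule, at 99.8 and 55.1, and Sftpc, a gene of the rule, had 57.3. These are near-identical paralogs, so reads could be split between them by the counting, which was not tested. In the macrophage and monocyte gate Lyz2 stood at 7892 CPM and Lyz1 at 57.2 CPM. The value of Lyz1 ran from 0 through 107 to 627, and that of Lyz2 from 0 through 13 to 280. Of 327 cells with at least 10 values for the pair, Lyz1 held 90% or more of them in 150 cells and under 10% in 39 cells, and 138 cells lay between. In the 150 cells the medians were 182 for Lyz1 and 1 for Lyz2, and in the 39 cells 1 for Lyz1 and 72 for Lyz2. These 2 sets of cells had close medians of Sftpc and Sftpa1, the surfactant protein genes compared, with median Sftpc of 1388 in the cells led by Lyz1 and 1409 in those led by Lyz2, median Sftpa1 of 75 and 76, and median detected genes of 2232.5 and 2119. Over all 345 cells Spearman's rho between Lyz1 and Lyz2 was -0.27, a description over cells of 1 library.

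Other genes varied in groups. Over the 345 cells, which share 1 library and the large Sftpc part of their totals, Fabp5 correlated with Cxcl15, a lung chemokine, at a rho of 0.69, with Acoxl, an acyl-CoA oxidase relative, at 0.60 and with Scd1 at 0.57. Sftpa1 went with another set, at 0.60 with Wfdc2 and 0.56 with Sftpd. Across the sets, Sftpa1 had a rho of 0.34 with Cxcl15, 0.22 with Fabp5 and -0.07 with Scd1, and Sftpd had -0.06, -0.12 and -0.29 with the same genes. In the 115 cells with most Fabp5 (22 to 54) the medians were 60 for Cxcl15, 4 for Scd1 and 159 for Lyz1, against 21, 1 and 64 in the 115 cells with least (0 to 12). Sftpd moved little between them, at 13 and 16. In the 115 cells with most Sftpa1 (97 to 311) the medians were 24 for Sftpd, 30 for Wfdc2 and 5 for Chia1, against 10, 18 and 1 in the 115 with least. Median detected genes were 2028 in the cells with most Fabp5 and 2330 in those with least, and 2077 and 2362 for Sftpa1. The part of this difference in the results was not tested. Sftpc itself went most with Napsa and Sftpb, both at 0.46, and then with S100g (0.39), Fabp5 (0.37), Rnase4 (0.36), Pla2g1b (0.33), Cxcl15 (0.33), Nupr1 (0.32) and Ces1d (0.31), and it was lower in cells with more Ptma, a chromatin-associated protein (-0.46). Acoxl and Ptma were picked after their values were seen.

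AT2 cells with more AT1 markers held less lysozyme and surfactant protein A. By the number of the 8 gate markers above 0, 157 AT2 cells had 0 or 1, 101 had 2, 40 had 3 and 47 had 4 or more. In the last band 16 cells had 5 markers, 6 had 6 and 5 had 7. These cells reached the marker count of the AT1 gate but not its limit on Sftpc. The median of Lyz1 was 147, 124, 52.5 and 30 over these 4 bands, that of Sftpa1 83, 80, 78 and 46, and that of Sftpc 1401, 1421, 1334 and 1237. Ager, which is 1 of the 8, had medians of 5, 5, 7 and 8. Detected genes had medians of 2094, 2170, 2302.5 and 2388 over the same bands, and their part in the pattern was not tested. None of the 4 predicted doublets was in the 2 upper bands. Among the lowest correlations with Fabp5 were Akap5 (-0.37), 1 of the 8 markers, and Crip2 (-0.48), picked after their values were seen.

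S and G2/M phase genes were on in a part of the AT2 cells. As a class they lay close to the other cells: 1 of 35 genes was higher and 2 lower, with a median of -0.10. Ung, which removes uracil from DNA, had 23.6 and 10.1 CPM, and Cenpa, a centromere histone, 33.5 and 117 CPM. Per cell, 73 AT2 cells (21.2%, exact interval 17 to 25.9%) had at least 10 of the 35 genes above 0, against 17.1% of all other cells (16.4 to 17.9%) and 31.4% of lymphocytes. After thinning to 3859 values the share was 15.7% in the AT2 cells, 14.9% in every 10th of the other cells (18.7% in these before thinning) and 28.2% in lymphocytes. In the 73 cells Mki67, a proliferation marker, was above 0 in 71.2%, against 3.68% of the other 272 AT2 cells. Their median Sftpc was 1209, against 1416, with median detected genes of 2094 and 2225.5, and over all AT2 cells the rho of Sftpc with the number of cycle genes was -0.37. The limit of 10 genes was set after the values were seen, and 14 cells lay just under it at 9 and 7 just on it at 10.

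**Figure D5:**
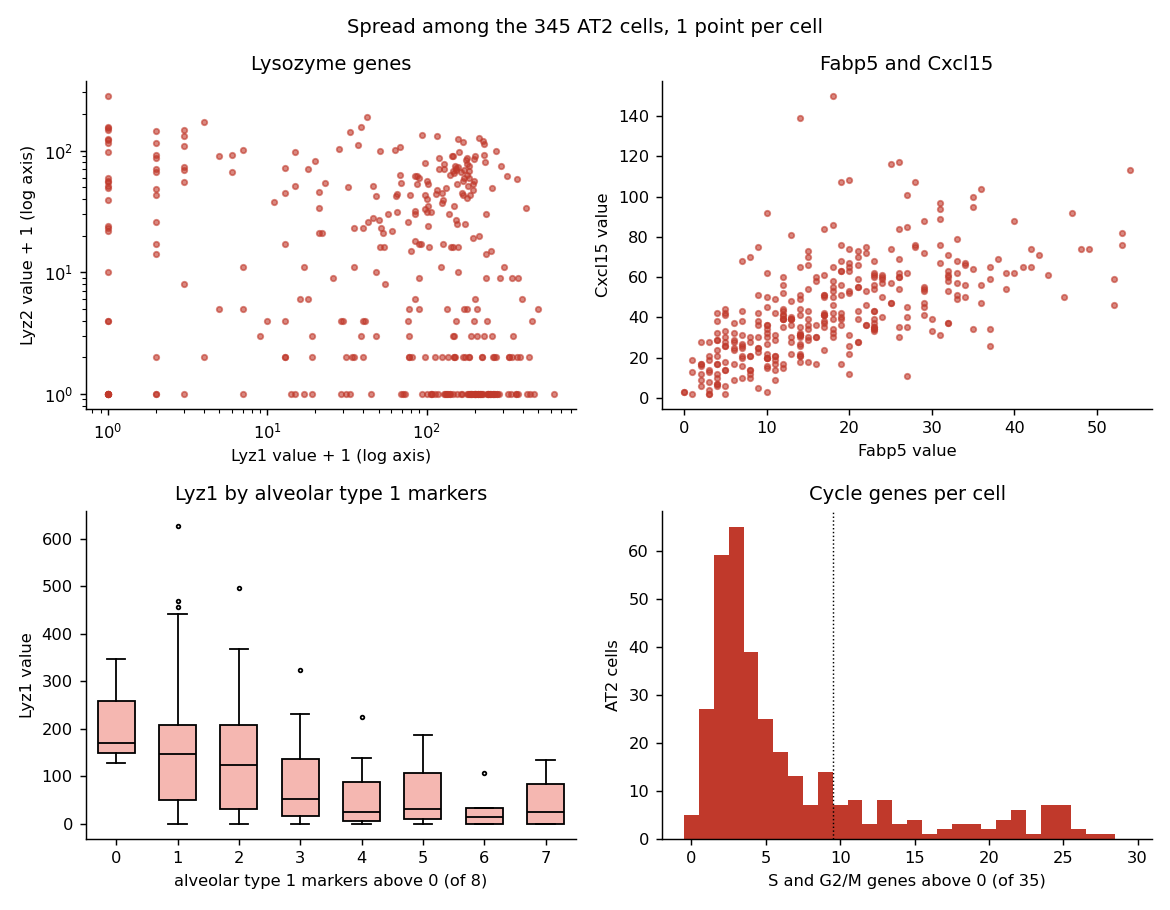
Spread among the 345 AT2 cells: Lyz2 against Lyz1 (values plus 1, log axes), Cxcl15 against Fabp5 (values), Lyz1 by the number of 8 AT1 markers above 0 (boxes span the middle 50% of cells, whiskers reach 1.5 times the box height, and dots are cells beyond) and the number of S and G2/M genes above 0 per cell (bars, cells; the dotted line marks the limit of 10). Many cells held Lyz1 with little Lyz2, and 39 held mainly Lyz2.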

How the data were processed

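Per the submitters' processing notes, Cell Ranger 5.0 and Seurat 3.2.2 were used for the single cells, and Trim Galore, HISAT2, featureCounts and DESeq2, with no versions, for the bulk library. The notes name mm10. For the single cells, the build was not given in the sources used here. The deposited single-cell values were treated as a score: whole numbers per gene and cell, taken from their narrow totals to be UMIs corrected for depth by an unknown step, not raw counts. The design had assumed raw counts, so no count model or Poisson interval was used for them. For each gene of the bulk library the authors deposited an expected count and a TPM value. The expected counts, 171910584 in all, were scaled to CPM with exact Poisson intervals, and the deposited TPM were kept for reference.

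From the single-cell values, cells were selected and gated, summed by class and scaled to 1000000, and log2 ratios were taken with 1 CPM added, over genes with at least 20 summed values. The members, lists and gates were chosen with earlier results of these data known. Some lists share genes. Genes named are those of the rule, up to 4 per list by largest ratio among those with at least 100 summed values, AT1 genes at 100 CPM or more in the AT2 or AT1 gate cells, the 15 highest and 10 lowest ratios outside the lists at 100 CPM or more, the 15 most variable genes and the genes correlated with Sftpc above 0.3. Others are stated as picked afterwards, and some genes of the rule are not reported here. Doublets were scored by a re-implementation of the Scrublet method (2000 variable genes, 30 components, expected share 5%) and were left in, except as an alternative. Simulated sums were Poisson draws from 1 pooled profile, with 50 genes planted at each size among 9375 with at least 20 expected values in AT2 cells. Log2 ratios of 1, 2, -1 and -2 were recovered for AT2 over all other cells as medians of 0.98, 1.97, -1.01 and -1.91. Of each 50, 23, 50, 25 and 49 passed the limit of 1 in size, as did 194 of 15294 unchanged genes (1.27%). The deposited values are not taken as raw counts, so this checks the calculation and not their noise. Sequences came from RefSeq promoters (GRCm38.p6). Python 3.11.15, NumPy 2.4.6, SciPy 1.17.1, pandas 2.3.3, scikit-learn 1.9.0, scikit-image 0.26.0 and Matplotlib 3.10.9 were used. Thinning drew 3859 values from each cell without replacement. If the values were already corrected, it equalises totals and not the depth of sequencing. Intervals for shares of cells are exact and cover counting error only.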

Additional observations from a re-analysis of the deposited data

Results flagged for a closer look

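Surfactant genes were also found in the bulk library of sorted PDGFRA+ cells, which no comparison above uses. Sftpc stood at 79.1 CPM (exact Poisson 95% interval 77.7 to 80.4, from 13591 reads), Sftpb at 23.7 CPM (22.9 to 24.4) and Sftpa1 at 7.95 CPM (7.54 to 8.38), against a floor of 0.0175 CPM for 3 reads. In the same library Pdgfra, the gene of the sort, stood at 184 CPM, the epithelial gene Epcam at 0.588 CPM and Ager at 13.2 CPM. With 1 bulk library there is no control sample to set beside these values, and their source was not tested.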

How the results depend on the processing

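The number of AT2 cells stayed between 310 and 350 under 11 of 12 alternatives to the rule and the cell filters, and became 425 without the limits on Ptprc, Pecam1 and Col1a2. With mitochondrial genes at most 5% it was 312 cells, but 3.70% of the cells then kept. With 10 CPM added, 966 genes were higher and 2129 lower than in all other cells, fewer because low genes are damped. The alternatives against the AT1 gate, the thinning and the limit on Sftpc in other cells were chosen after seeing the data. Against the AT1 gate with the rule genes left out of the totals, 1086 genes were lower. AT1 genes per AT2 cell had a median of 7 after thinning and of 8 to 9 under the other alternatives. The remaining counts lay within 1.5 times the reported ones. Emp2 reversed to -0.23 against other cells with Ptprc at 0. Without the pair of airway gate cells, the median of airway secretory markers against the AT1 gate reversed to 1.96, and the log2 ratio of Klf2 went from -1.71 to 0.00. Of 312 list medians recomputed against all other cells, 37 moved by more than 1.5-fold. None with a reported size of at least 1 turned direction, and smaller ones were not checked for this. The median of growth factor receptors and targets, reported at 0.06, was -0.69 against other cells with Ptprc at 0. Ptprc at 0 moved 13 of them, and adding 10 CPM moved 22 medians over the comparisons with all other cells and the AT1 gate together. Of the single-gene ratios against all other cells over these alternatives, 1891 moved less, 252 moved as much and 1 reversed. Only ratios with a reported size of at least 1 could count as reversed. The cause was not tested. No paired analysis was possible because each group has 1 sample. With no replicates and values that appear corrected for depth, no error between animals can be given, and a share near that of lymphocytes cannot be told from free RNA at this depth.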

Other observations

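Some widely detected genes not described above were chosen after their values were seen. Meg3, a maternally expressed long noncoding RNA, was above 0 in 93.9% of AT2 cells (exact interval 90.8 to 96.2%) and 4.58% of lymphocytes, at 1230 CPM in the AT2 cells, 658 CPM in the fibroblast gate and 365 CPM in the AT1 gate. Dlk1, an imprinted growth regulator of the same gene cluster, was in the list of other AT2 genes and stood at 693 CPM in the AT2 cells, 29.8 CPM in the fibroblast gate and 9.86 CPM, a single value, in the AT1 gate. Hdc, the enzyme that makes histamine, was above 0 in 64.1% of AT2 cells (58.7 to 69.1%) and 4.23% of lymphocytes, at 393 CPM in the AT2 cells and 399 CPM in the airway gate. Apoc1, a lipoprotein component, had 247 CPM in the AT2 cells and 140 CPM in the macrophage and monocyte gate.

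The list of genes that varied most between AT2 cells also held Malat1, a nuclear noncoding RNA (a highest value of 511), Gm42418, S100a8, S100a9, S100a6, Ccl6 and Retnla, whose highest values were 72, 46, 37, 27 and 40 for the last 5 while their medians were 0. S100a8 was above 0 in 19.1% of AT2 cells and 47.4% of lymphocytes, a share that did not stand above background. Retnla was above 0 in 15.9% of AT2 cells and 1.06% of lymphocytes, and it stood at 114 CPM in the AT2 cells and 106 CPM in the macrophage and monocyte gate. Apoe, Chia1, Tubb5, Ube2c and the histone genes Hist1h1b and Hist1h2ap complete the 15, and Ube2c and the histones were above 0 in 12.2 to 13% of AT2 cells.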
